A study of Mus musculus with 16 samples.

Results

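Leukocyte integrins and their adhesion partners are 10 genes, chosen by name but with earlier results of these data known. The integrin chains among them are Itgam, Itgax, Itgal, Itga4, Itgb2 and Itgb7. The others are the endothelial counter-receptors Icam1 and Vcam1, and P-selectin (Selp) with its ligand gene Selplg. All 10 were found among the 49568 gene symbols of the count table. RNA-seq counts were available for 16 libraries of flexor tendon from male mice aged 9 to 11 weeks, each from a single tendon. The 4 groups of 4 libraries were the C57BL/6J (C57) and the MRL/MpJ (MRL) strain, each without injury and at 7 days after it (dpi). Both are inbred, and MRL/MpJ mice are known to heal several tissues with little scarring, while C57BL/6J is in common laboratory use. The injury was an incomplete cut through the deep flexor tendon of the middle hind-paw digit, and sheath and peritendinous tissue was left on all tendons. The methods give 4 animals per group. The uninjured libraries carry a replicate number, and the injured libraries are called by the names in the labels, BI-181, BI-183, then BI-184 and last BI-185 for C57, and BI-270, BI-272, then BI-274 and last BI-275 for MRL. Values of the 4 injured libraries of a strain are given in this order.

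Leukocytes leave the blood in steps. P-selectin on activated endothelium and platelets catches cells that carry PSGL-1, the product of Selplg, and the cells then stop and cross the vessel wall through integrins, each a pair of an alpha and a beta chain. The beta 2 chain (Itgb2) pairs with alpha L (Itgal), alpha M (Itgam) or alpha X (Itgax) and binds ICAM-1 and other ligands, while the alpha 4 chain (Itga4) pairs with the beta 1 or the beta 7 chain (Itgb7) and binds VCAM-1 or mucosal addressin. Alpha M is abundant on macrophages and neutrophils, alpha X on dendritic cells and some macrophages, and alpha L on lymphocytes, and the protein of each alpha chain reaches the cell surface only with its beta chain.

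Libraries held 12552424 to 23741648 counts each, and 3 counts, used here as the floor, stood for 0.128 to 0.237 CPM, the usual scaling of counts to library size. The injured MRL libraries were the deepest, with 18524170 counts or more against at most 17832908 in the other groups. All 8 tendon markers were detected in each group, with a summed level of 11041 to 59814 CPM per library. The sum of 12 epidermal genes was 73615 CPM in C57 uninjured replicate 4 and 859.8 CPM or less in the other 15 libraries, and the sum of 12 skeletal muscle genes was 74508 CPM in BI-181, 2168 CPM in BI-183 and at most 20.4 CPM elsewhere. The main C57 calls are given with and without these libraries. Some C57 shares and ratios are also given without C57 uninjured replicate 4 and BI-181. Levels in bulk tissue do not tell fewer cells of a type from less RNA per cell.

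Of the genes on mouse chromosome 7, Itgam (GRCm38 7:128062640-128118491, plus strand) and Itgax (7:128129547-128150657, plus strand) are neighbours, and Itgal (7:127296260-127335138, plus strand) lies on the same chromosome. Itgb2 is at 10:77530252-77565708 (plus strand), Itga4 at 2:79255426-79333123 (plus), Itgb7 at 15:102215995-102231944 (minus), Icam1 at 9:21015985-21028817 (plus), Vcam1 at 3:116109949-116129688 (minus), Selp at 1:164115264-164150026 (plus) and Selplg at 5:113818536-113832644 (minus). RefSeq promoter sequence of GRCm38.p6 was found for 6 of the 10 genes. The stretches that end just before the annotated transcript are shown for Itgam and Itgax, neighbours whose levels differed widely, and for Icam1, whose promoter carries a match to the kappa B element that NF-kappa B binds. Capitals mark matches, on either strand, to GGAAATTCC (a kappa B element), the longer kappa B element of the immunoglobulin kappa enhancer, GAGGAA (the core of purine boxes that myeloid factors bind) or TATAAA (the TATA box), and the matches do not overlap each other. Each is written 5′ to 3′ on the strand of the gene.
Itgam, chr7:128062390-128062639: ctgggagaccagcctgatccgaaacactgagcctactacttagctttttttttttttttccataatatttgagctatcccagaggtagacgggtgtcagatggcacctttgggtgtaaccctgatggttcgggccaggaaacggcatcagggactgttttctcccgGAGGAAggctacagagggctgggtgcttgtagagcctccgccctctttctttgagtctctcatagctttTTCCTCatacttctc
Itgax, chr7:128129300-128129546: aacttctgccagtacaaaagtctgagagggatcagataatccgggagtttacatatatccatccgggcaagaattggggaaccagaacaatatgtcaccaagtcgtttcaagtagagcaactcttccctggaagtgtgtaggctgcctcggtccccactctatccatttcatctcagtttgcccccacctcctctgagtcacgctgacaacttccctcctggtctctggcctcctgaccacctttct
Icam1, chr9:21015690-21015939: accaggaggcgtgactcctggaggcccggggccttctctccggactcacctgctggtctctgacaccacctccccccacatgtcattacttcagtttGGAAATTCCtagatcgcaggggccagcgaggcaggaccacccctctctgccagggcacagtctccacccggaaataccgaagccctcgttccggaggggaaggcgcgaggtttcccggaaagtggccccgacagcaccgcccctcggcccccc
The kappa B match of Icam1 began at position -153, counted back from the RefSeq start, and this element (GGAAATTCC) occurred in 94 of 32851 promoters of the same length (0.286%). Itgam had GAGGAA at positions -84 and -15, the latter on the opposite strand, an element held by 23.3% of promoters. The enhancer element occurred in 0.14% and TATAAA in 12.4% of promoters and in none of the 6 windows. A match is a description of the letters and no measure of binding.

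**Figure D1:**
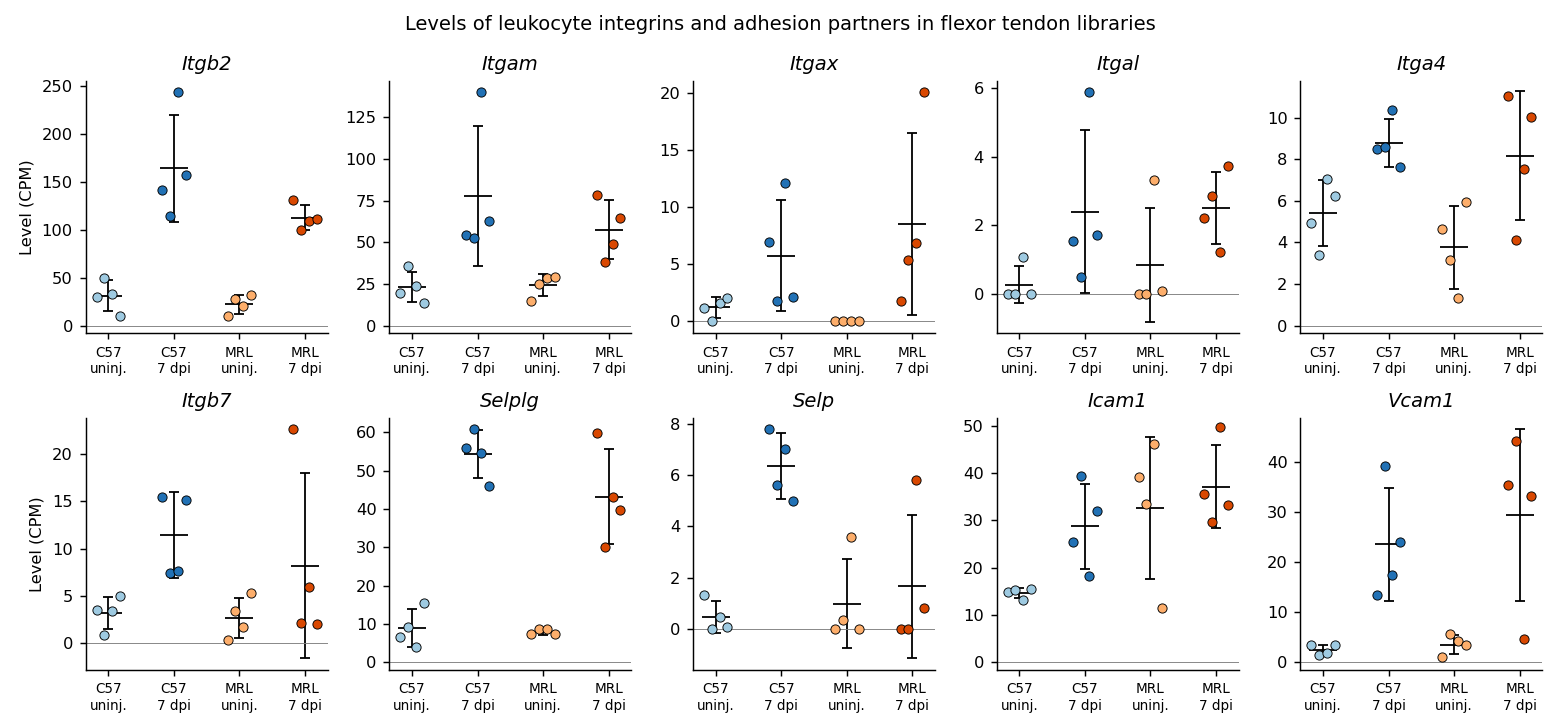
Level in CPM (y axis, starting near 0, with a scale of its own in each panel) of the 10 genes in the 4 groups (x axis); each point is 1 library, the bar is the mean and the whiskers are the SD (n = 4). The points of Itgb2, Itgam and Selplg at 7 dpi lie above all uninjured points of the same strain, while 3 of 4 MRL libraries at 7 dpi have Selp at 0.820 CPM or less and Itgax is at or near 0 in all uninjured MRL libraries.

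The beta 2 integrin chain and the P-selectin ligand rose after injury in both strains, as did Vcam1. The chain shared by all beta 2 integrins, Itgb2, was at 30.02, 50.1, 33.5 and 10.5 CPM in uninjured C57 replicates 1 to 4 and at 141, 114, 243 and 157 CPM in the injured libraries. In MRL it was at 9.65, 27.6, 20.4 and 32.1 CPM in uninjured replicates 1 to 4 and at 131, 99.3, 109 and 111 CPM in the injured libraries. Every injured library was above every uninjured library of its strain, and BI-184 was the highest of all. The log2 fold change was 2.35 (SE 0.44, adjusted p = 0.0471) in C57 and 2.32 (SE 0.32, adjusted p = 0.00252) in MRL.

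Selplg, whose product PSGL-1 binds P-selectin, was at 6.54, 9.36, 4.06 and 15.6 CPM in uninjured C57 replicates 1 to 4 and at 55.9, 61.0, 54.5 and 46.1 CPM in the injured libraries. In MRL the uninjured replicates 1 to 4 had 7.29, 8.76, 8.73 and 7.34 CPM and the injured libraries had 59.8, 30.03, 43.2 and 39.7 CPM. No injured library overlapped an uninjured library of the same strain, and the uninjured libraries of both strains lay in the same range. The log2 fold change was 2.56 (SE 0.39, adjusted p = 0.0246) in C57 and 2.41 (SE 0.24, adjusted p = 0.00100) in MRL.

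Vcam1, the endothelial and stromal ligand of the alpha 4 integrins, was at 3.40, 1.55, 1.91 and 3.38 CPM in uninjured C57 replicates 1 to 4 and at 13.5, 39.2, 17.4 and 24.1 CPM in the injured libraries. In MRL it was at 0.985, 5.67, 4.22 and 3.40 CPM in uninjured replicates 1 to 4 and at 35.4, 44.2, 4.73 and 33.3 CPM in the injured libraries. BI-274 lay within the range of the uninjured MRL libraries, and the other 3 injured MRL libraries were above it. The log2 fold change was 3.14 (SE 0.46, adjusted p = 0.0216) in C57 and 3.04 (SE 0.67, adjusted p = 0.0190) in MRL.

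Itgam, the alpha chain of Mac-1, was at 19.4, 35.6, 24.0 and 13.8 CPM in uninjured C57 replicates 1 to 4 and at 54.6, 52.8, 140.3 and 62.9 CPM in the injured libraries. In MRL the uninjured replicates 1 to 4 had 15.0, 24.9, 28.6 and 29.0 CPM and the injured libraries had 78.1, 37.9, 49.1 and 64.7 CPM. The injured libraries of both strains were all above the uninjured libraries, and BI-184 stood far above the other C57 libraries. The log2 fold change was 1.69 (SE 0.40, adjusted p = 0.0854) in C57, which did not pass, and 1.23 (SE 0.28, adjusted p = 0.0209) in MRL, which did. Gm49368, a gene of the GENCODE M21 annotation on the same strand, shares 3450 exonic bases with Itgam. It has no row of its own among the counts, and how many reads of this stretch came from it was not tested.

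Itgax, the alpha chain of the complement receptor CD11c/CD18, had 0, 1, 0 and 0 counts in the uninjured MRL replicates 1 to 4. At 7 dpi it had 42, 119, 152 and 367 counts in the injured libraries, or 1.79, 5.39, 6.85 and 20.1 CPM. All uninjured MRL libraries were under the floor of 3 counts and all injured ones above it, with BI-275 the highest. Set against the floor, taken as the mean over the uninjured libraries of what 3 counts stand for, Itgax was at least 41.2-fold higher at 7 dpi. The bound was at least 22.6-fold without BI-275. The edgeR test of the fitted difference had an adjusted p of 0.00285, and the bound itself was not tested. Itgax passed the low count filter in MRL through its injured libraries alone. In C57 it was at 1.201, 0, 1.61 and 2.08 CPM in uninjured replicates 1 to 4 and at 6.98, 1.79, 12.1 and 2.14 CPM in the injured libraries. These ranges overlapped, and the log2 fold change of 2.18 (SE 1.12, adjusted p = 0.390) did not pass.

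**Figure D2:**
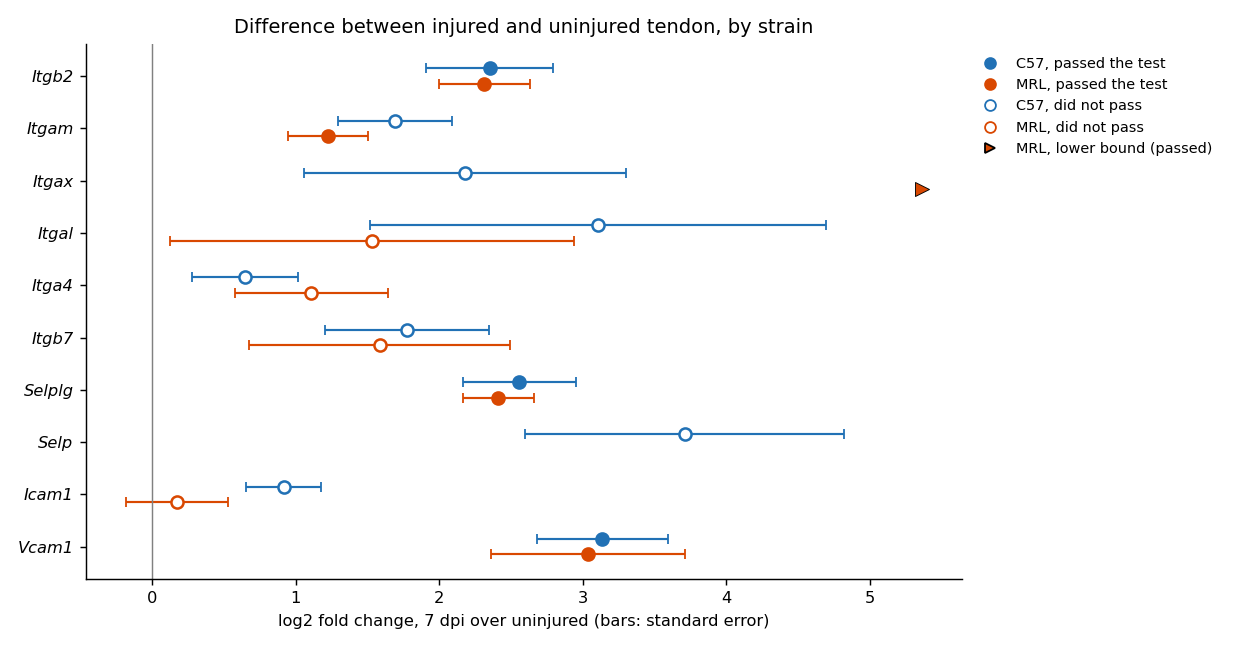
Log2 fold change of each gene at 7 dpi over uninjured tendon (x axis) in C57 (blue) and MRL (orange) with its standard error (bars); filled points passed the test, open points did not, and the triangle is the lower bound of Itgax in MRL. Itgb2, Selplg and Vcam1 have filled points in both strains at similar values, Itgam and Itgax in MRL only, and Selp has no MRL point because it was not tested there.

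In all, Itgb2, Vcam1 and Selplg rose in C57, where 10 members were tested, the same 3 genes, Itgam and Itgax rose in MRL, where 9 were tested, and none fell. The low count filter was reached by the uninjured libraries alone for 7 of the 10 members in C57 (3 of them called) and 6 of the 9 in MRL (4 called, Itgax not among the 6). Itgal, Itgax and Selp in C57 and Itgal, Itgax and Itgb7 in MRL passed it only with their injured libraries counted, a choice that favours higher values at 7 dpi, and are left out of the medians and the counts of non-overlapping groups given next. Differentially expressed genes (adjusted p under 0.05 and absolute log2 fold change over 1) were 1.07% of the 14424 genes tested in C57, with 0.908% higher at 7 dpi, and 7.41% of the 14274 tested in MRL, with 5.25% higher. The median log2 fold change was 1.78 over the 7 members in C57, against -0.05 over all genes, and 1.77 over the 6 in MRL, against -0.03. The injured libraries were all above the uninjured ones for 7 of the 7 in C57, where 7.58% of all genes showed this, and for 3 of the 6 in MRL, where 14.2% did. The C57 calls were sensitive to single libraries: all 3 held without uninjured replicate 4, Vcam1 alone held without BI-181, and none held when any of the other 6 C57 libraries was left out (adjusted p 0.0520 to 0.139). Without uninjured replicate 4 and BI-181 together, Itgam (log2 fold change 1.69, adjusted p = 0.0320) passed beside Itgb2, Vcam1 and Selplg. In this setting 867 of all 14515 genes tested (5.97%) passed, and the median over the same 7 members was 1.93. With BI-183 left out as well, the same 4 genes passed (Itgam at an adjusted p of 0.0367), as did 459 of all 15137 genes (3.03%), and the median was 2.10. Both alternatives were chosen after seeing the data.

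In MRL, leaving out a single library kept Itgb2 and Selplg past the threshold in all 8 cases. Itgax also stayed past it, but was tested only with its injured libraries counted. Itgam did not pass without BI-270 (adjusted p = 0.0567), uninjured replicate 1 (0.0524) or uninjured replicate 2 (0.0553), and Vcam1 did not pass without BI-272 (0.0547), uninjured replicate 3 (0.0513) or uninjured replicate 4 (0.0507). DESeq2 called 6 of the 10 genes in C57, adding Itgam, Itgb7 and Selp, where it called 754 genes (5.23%) against 155 with edgeR. It called 5 members in MRL, where it called 1554 genes (10.9%) against 1057. Of these members, Selp in C57 and Itgax in MRL were tested only with their injured libraries counted.

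None of the remaining genes passed with edgeR in a strain where it was tested, while Selp and Itgb7 passed in C57 with DESeq2. Selp, made by platelets and endothelium and the lectin to which PSGL-1 binds, was at 1.33, 0, 0.459 and 0.0651 CPM in uninjured C57 replicates 1 to 4 and at 7.78, 5.62, 7.03 and 4.98 CPM in the injured libraries. The C57 groups did not overlap, but the log2 fold change of 3.71 (SE 1.11, adjusted p = 0.170) did not pass, and it was 5.11 (adjusted p = 0.136) without uninjured replicate 1. In MRL Selp was at 0, 0.359, 3.56 and 0 CPM in uninjured replicates 1 to 4 and at 0, 0, 5.81 and 0.820 CPM in the injured libraries. It was too low to be tested there, and 1 library in each MRL group held most of its counts. The summed level of 9 endothelial markers was 135 to 260.3 CPM in the injured C57 libraries and 5.53 to 40.1 CPM in the injured MRL libraries. It was 20.3 to 123 CPM in uninjured C57 and 19.0 to 98.5 CPM in uninjured MRL. No marker of the 9 was at 0 in all libraries of a group. Cdh5, Kdr, Tek, Emcn and Tie1 were at 0 in at least 1 library of each MRL group, as was Pecam1 in uninjured MRL. Cdh5 and Esam were at 0 in at least 1 uninjured C57 library. None of the 9 passed on injury in either strain. Between injured tendons 3 of 9 (Pecam1, Egfl7 and Esam) were lower in MRL, against 1.88% of all genes called lower. Pecam1 was tested there only with its C57 libraries counted. Of 6 platelet markers, 4 were tested in each strain, and Pf4 rose in both and Ppbp in MRL, where Ppbp was at 0 in all uninjured libraries and was tested only with its injured libraries counted. Itga2b (log2 fold change 1.04 in C57 and 0.39 in MRL) and Gp1bb (-2.31 and -0.95) did not pass, and Gp9 and Gp5 averaged 0.411 CPM or less in each group. Their sum was 313 to 408 CPM in injured C57 and 114 to 271 CPM in injured MRL tendon, against 68.2 to 141 CPM and 41.8 to 95.2 CPM before injury, and was mostly Pf4 (mean 357 CPM in injured C57 and 175 CPM in injured MRL tendon). The part of either cell type in the Selp values was not tested.

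Icam1, a ligand of the beta 2 integrins and the gene with the kappa B match shown above, was at 14.8, 15.2, 13.2 and 15.5 CPM in uninjured C57 replicates 1 to 4 and at 25.5, 39.3, 18.3 and 32.0 CPM in the injured libraries. In MRL it was at 39.1, 33.5, 46.1 and 11.5 CPM in uninjured replicates 1 to 4 and at 35.6, 29.7, 49.7 and 33.2 CPM in the injured libraries. The injured C57 libraries were all above the uninjured ones, whereas the MRL groups overlapped over most of their range. The log2 fold change was 0.92 (SE 0.26, adjusted p = 0.157) in C57 and 0.17 (SE 0.35, adjusted p = 0.789) in MRL.

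The alpha 4 pair and alpha L did not pass with edgeR in either strain. Itga4 ranged from 3.42 to 7.04 CPM in uninjured and from 7.62 to 10.4 CPM in injured C57 tendon, without overlap, and from 1.31 to 5.92 CPM and from 4.12 to 11.1 CPM in MRL, with overlap (log2 fold change 0.64, adjusted p = 0.439 in C57, and 1.11, adjusted p = 0.20 in MRL). Itga4 shares 1124 exonic bases with Cerkl on the opposite strand, which had 0 to 64 counts per library, and the strand setting of the counting is not given in the sources used here, so reads of this stretch cannot be told apart. Itgb7 ranged from 0.903 to 5.01 CPM in uninjured and from 7.48 to 15.5 CPM in injured C57 tendon, and in MRL from 0.394 to 5.29 CPM and from 2.08 to 22.6 CPM (log2 fold change 1.78, adjusted p = 0.194 in C57, and 1.59, adjusted p = 0.284 in MRL). The highest MRL value was BI-270, and without that library the MRL log2 fold change of Itgb7 was 0.30. Itgal had 0 counts in 3 of 4 uninjured C57 libraries and at most 1 count in 3 of 4 uninjured MRL libraries, and 8 to 91 counts in the injured libraries. Its log2 fold change was 3.11 (SE 1.59, adjusted p = 0.388) in C57, where it was 8.19 (adjusted p = 0.163) without uninjured replicate 3, the only uninjured C57 library with counts (14), and 2.19 without BI-184. It was 1.53 (SE 1.41, adjusted p = 0.516) in MRL, and the MRL value passed (adjusted p = 0.0278) only when uninjured replicate 3, with 56 counts, was left out. T and NK cell markers, 9 genes, summed to 4.45 to 10.8 CPM in the injured libraries and 0.197 to 2.38 CPM in uninjured MRL. In uninjured C57 the sum was 0, 1.48 and 0.536 CPM in replicates 1 to 3 and 37.7 CPM in replicate 4, of which Trbc2 was 37.5 CPM, while the defining markers Cd3d, Cd3e and Cd3g were at 0 in all 4. Cd2, the 1 marker of these tested, had a log2 fold change of 3.60 (adjusted p = 0.162) in C57 and rose in MRL (3.86, adjusted p = 0.0190), and in both strains it was tested only with its injured libraries counted.

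Whether the strains differed in the injury response was tested as an interaction over all 16 libraries. None of the 10 genes passed with edgeR, nor did any of the 15947 genes tested (0%), although 1939 genes, Itgax among the members, had an unadjusted p under 0.05. The interaction of Itgax was 6.20 on the log2 scale (SE 1.74, adjusted p = 0.333), a fitted value that rests on uninjured MRL libraries near 0 counts. DESeq2 called 141 genes and, among the members, Itgax (adjusted p = 0.0326). The interaction was -0.09 (SE 0.56) for Itgb2, -0.20 (SE 0.44) for Selplg, -0.15 (SE 0.83) for Vcam1, -0.52 (SE 0.50) for Itgam and -0.79 (SE 0.47) for Icam1, each smaller than 2 standard errors. Both strain-specific comparisons and the interaction use the same libraries, so their values are not independent of each other.

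Between uninjured tendons of the strains, 7 members were tested and none passed with edgeR or DESeq2. Of all 14055 genes, edgeR called 0%, with 1106 genes and 1 member, Icam1, at an unadjusted p under 0.05, and DESeq2 called 58 genes. Icam1 was higher in MRL replicates 1 to 3 than in any C57 library, while MRL replicate 4 was lower than all of them (log2 fold change 1.13, SE 0.37, adjusted p = 0.621). The 4 libraries of a strain lay above all 4 of the other for none of the 7 members and for 5.02% of genes.

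Between injured tendons, none of the 10 members passed with edgeR or DESeq2, while 3.43% of 14626 genes did with edgeR. The smallest p was that of Itgb2, at 164 ± 55.6 CPM in C57 and 113 ± 13.4 CPM in MRL (SD, n = 4 each; log2 fold change -0.58, SE 0.23, unadjusted p = 0.0317, adjusted p = 0.189). The groups overlapped for all 10 members, against 16.1% of genes that did not overlap. Selp had the largest fold change in size (log2 fold change -1.97, SE 1.36, adjusted p = 0.439), from 6.35 ± 1.28 CPM in C57 to 1.66 ± 2.80 CPM in MRL. Selp was tested here only with its C57 libraries counted, since 2 of the 4 injured MRL libraries had 0 counts, and its log2 fold change was -4.52 (adjusted p = 0.111) without BI-274, the MRL library with most of its counts, and -1.51 without BI-270.

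Levels of different genes were compared as CPM divided by the exonic length in kilobases (RPKM). In injured tendon Itgb2 was the highest member in both strains, at 53.8 ± 18.2 RPKM in C57 and 36.9 ± 4.40 RPKM in MRL (SD, n = 4). It was followed by Itgam (15.5 ± 8.36 and 11.4 ± 3.51 RPKM), Selplg (12.7 ± 1.45 and 10.1 ± 2.90 RPKM) and Icam1 (6.60 ± 2.06 and 8.50 ± 2.01 RPKM). The ranges of Itgb2 and Itgam did not overlap in either strain, those of Itgam and Selplg did in both, and those of Selplg and Icam1 did in MRL. The lowest members were Itgal in C57 (0.365 ± 0.361 RPKM) and Selp in MRL (0.376 ± 0.634 RPKM). In uninjured C57 tendon the order began with Itgb2 (10.2 ± 5.33 RPKM), Itgam (4.62 ± 1.84 RPKM) and Icam1 (3.37 ± 0.231 RPKM), and in uninjured MRL tendon with Icam1 (7.47 ± 3.43 RPKM), Itgb2 (7.35 ± 3.21 RPKM) and Itgam (4.85 ± 1.29 RPKM), and in both strains the first of these 3 overlapped the second and the second the third.

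**Figure D3:**
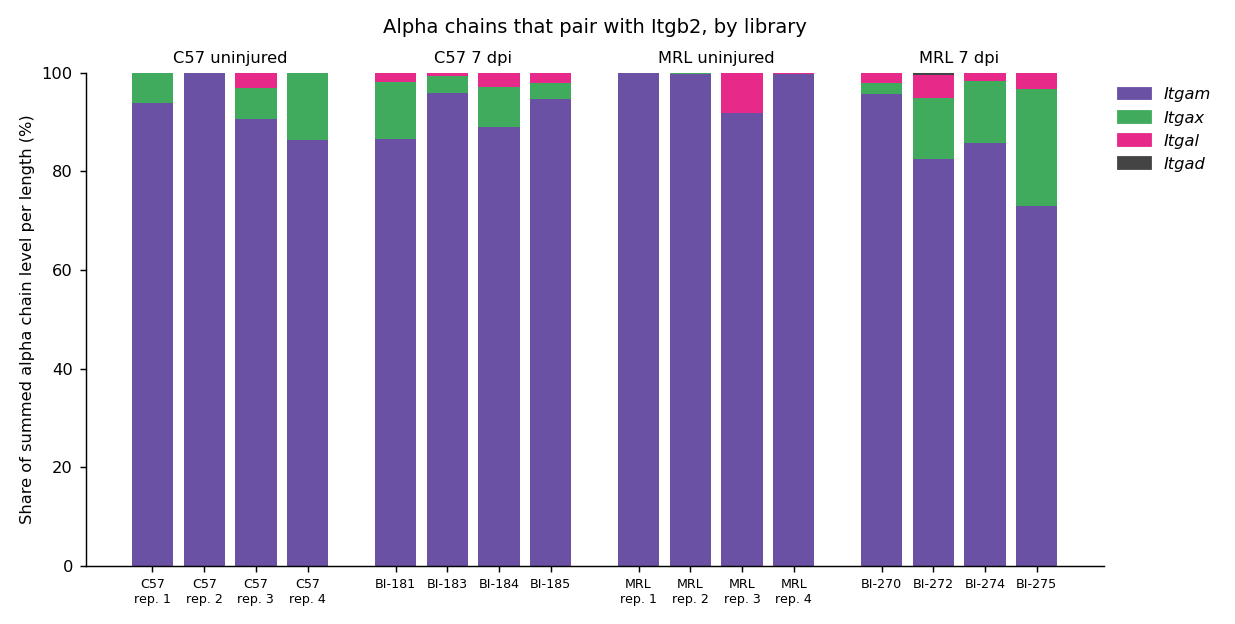
Share in percent (y axis, from 0 to 100) of Itgam, Itgax, Itgal and Itgad in the summed level per exonic length of the 4 alpha chains that pair with Itgb2, as a stacked bar for each of the 16 libraries (x axis), grouped by strain and injury. Itgam makes up 73.1% or more of each bar, and Itgax is absent from 3 of 4 uninjured MRL bars and present in all injured ones.

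Among the alpha chains that pair with Itgb2, Itgam made up most of the RNA per length in every library. Its share was 92.7% ± 5.76 in uninjured and 91.6% ± 4.46 in injured C57 tendon, and 97.8% ± 4.01 in uninjured and 84.3% ± 9.31 in injured MRL tendon (SD, n = 4 each). Itgad, the remaining alpha chain, had no counts in 15 libraries and 0.439% in BI-272. The share of Itgax was 0, 0.301, 0 and 0% in uninjured MRL replicates 1 to 4 and 2.29, 12.3, 12.5 and 23.7% in the injured libraries. The MRL groups did not overlap, and the difference of 12.6 percentage points had an exact permutation p of 0.0286 (two-sided), the smallest that 4 against 4 libraries allow. Its adjusted p was 0.343 over 12 share comparisons, none of which passed. A share could pass only if most of the 12 comparisons lay at or near that smallest p. In C57 the share of Itgax was 6.51% ± 5.58 before and 6.60% ± 3.98 after injury (exact permutation p = 1.0). Without C57 uninjured replicate 4 and BI-181 it was 4.14% ± 3.59 before and 4.94% ± 2.69 after (SD, n = 3 each). The summed alpha chain level per Itgb2 was 0.563 ± 0.240 and 0.304 ± 0.0618 in uninjured and injured C57 tendon and 0.743 ± 0.224 and 0.366 ± 0.0882 in MRL, and without the same 2 libraries it was 0.443 ± 0.0331 and 0.314 ± 0.0709 in C57.

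**Figure D4:**
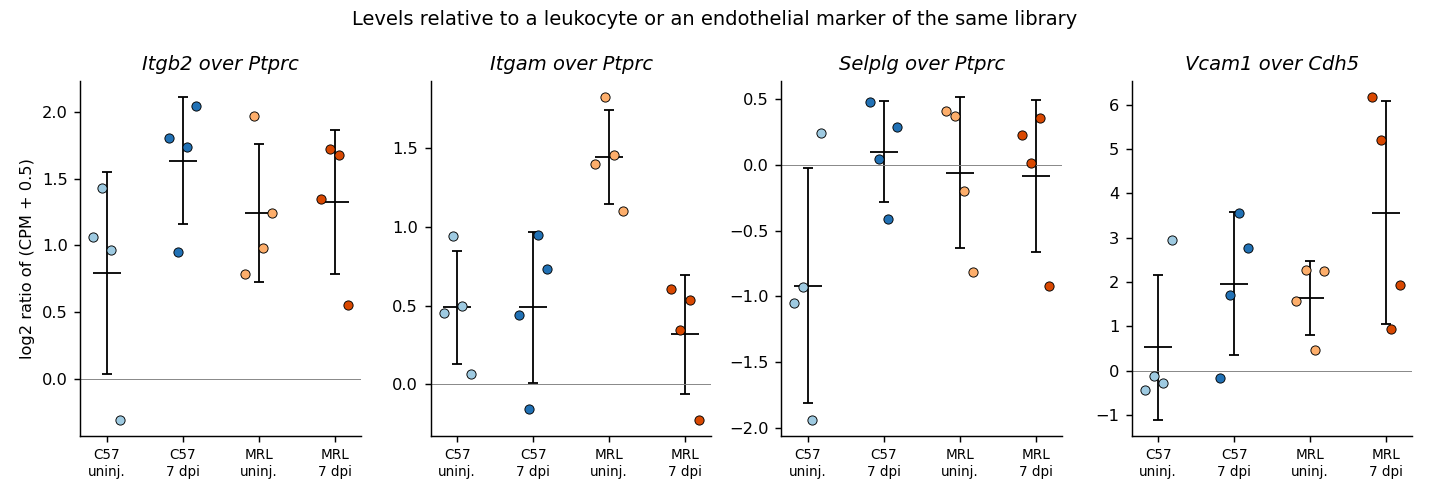
Log2 ratio (y axis) of Itgb2, Itgam and Selplg to Ptprc and of Vcam1 to Cdh5 within each library, in the 4 groups (x axis); points are libraries, bars are means and whiskers are SD (n = 4). The uninjured MRL points of Itgam over Ptprc, from 1.10 to 1.82, lie above the points of all other groups, and the other 3 ratios overlap in each comparison made.

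The leukocyte members were set against Ptprc (CD45, carried by all leukocytes) and the vascular members against Cdh5 (the cadherin of endothelial junctions). Ptprc itself rose, from 15.6 ± 2.39 to 52.4 ± 16.6 CPM in C57 (log2 fold change 1.69, adjusted p = 0.0243) and from 8.86 ± 3.55 to 47.6 ± 20.9 CPM in MRL (2.42, adjusted p = 0.00466). None of 40 ratio comparisons passed after adjustment (smallest adjusted p = 0.476), and with 4 against 4 libraries no exact permutation p could fall under 0.0286. A ratio could pass only if most of the 40 comparisons lay at or near that limit, so this result does not show that the ratios were alike. The ratio of Itgam to Ptprc was 1.401, 1.82, 1.46 and 1.10 on the log2 scale in uninjured MRL replicates 1 to 4 and 0.61, 0.35, 0.54 and -0.22 in the injured libraries. These groups did not overlap (difference -1.13, exact permutation p = 0.0286), nor did the uninjured strains (difference 0.96, exact permutation p = 0.0286). In C57 the ratio was 0.49 ± 0.36 before and 0.49 ± 0.48 after injury, and without uninjured replicate 4 and BI-181 it was 0.63 ± 0.27 and 0.51 ± 0.59 (SD, n = 3 each). With BI-183 left out as well, the ratio after injury was 0.84 ± 0.15 (SD, n = 2), higher than before injury.

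The ratio of Itgb2 to Ptprc differed by 0.84 in C57 (exact permutation p = 0.114) and 0.08 in MRL (p = 0.829), and that of Selplg by 1.02 (p = 0.0857) and -0.02 (p = 0.943). Vcam1 over Cdh5 differed by 1.44 in C57 (exact permutation p = 0.286) and 1.92 in MRL (p = 0.257), with Cdh5 at 0 in at least 1 library of each group but injured C57. Groups overlapped for each of these ratios. Without C57 uninjured replicate 4 and BI-181 the C57 means before and after injury were 1.155 and 1.58 for Itgb2, -1.30 and -0.026 for Selplg and -0.29 and 2.67 for Vcam1.

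**Figure D5:**
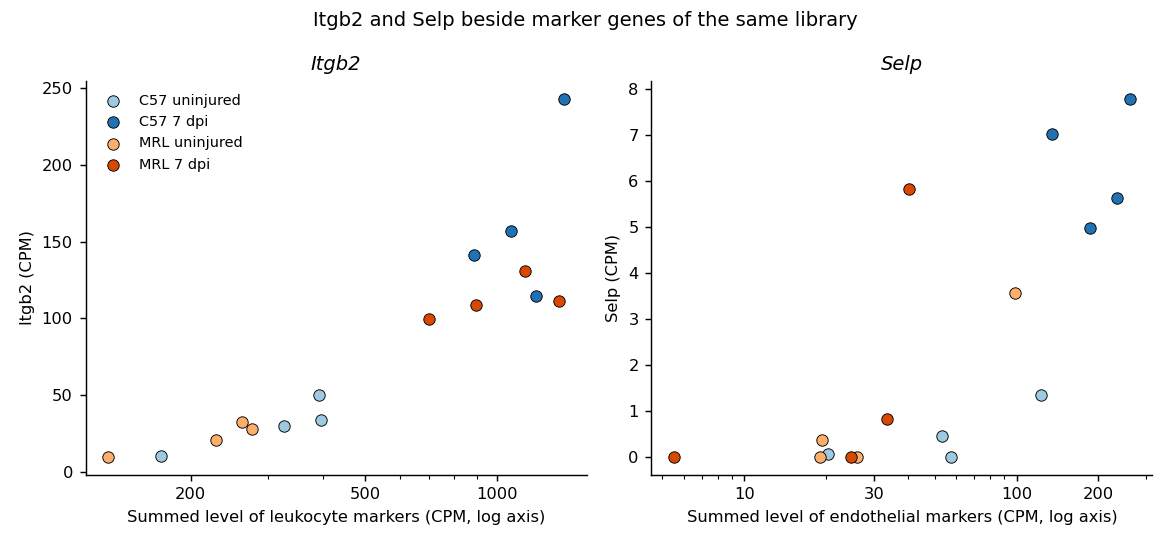
Left, level of Itgb2 in CPM (y axis) against the summed level of 8 leukocyte markers in CPM (x axis, log scale). Right, level of Selp against the summed level of 9 endothelial markers (x axis, log scale); each point is 1 of 16 libraries, coloured by group. Injured libraries lie to the upper right of uninjured ones for Itgb2, and the injured C57 libraries lie at the upper right for Selp.

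Some marker genes of leukocytes also rose after injury, where 0.908% of all genes were called higher in C57 and 5.25% in MRL. Of 8 general leukocyte markers, 4 rose in C57 (Ptprc, Cd53, Coro1a and Tyrobp) and 7 in MRL, and their summed level ranged from 172 to 396 CPM and from 886 to 1422 CPM in uninjured and injured C57 tendon and from 130 to 277 CPM and from 700.0 to 1389 CPM in MRL, with no marker at 0 in any group. Of 12 macrophage and monocyte markers, 11 were tested and 6 rose in C57 and 5 in MRL, among them in both strains Lyz2, Cd68, Adgre1 and Ccr2, the receptor that marks recruited monocytes (in MRL tested only with its injured libraries counted). Their sum ranged from 4850 to 8601 CPM in injured C57 and from 3677 to 6818 CPM in injured MRL tendon, against 798 to 1742 CPM and 983 to 1608 CPM before injury. Between injured tendons 4 of 12 (Csf1r, C1qa, C1qb and C1qc) were lower in MRL, against 1.88% of all genes called lower. Neutrophil markers, 8 genes, summed to 3.74 to 6.80 CPM in injured C57 and 4.50 to 31.1 CPM in injured MRL tendon, with Ly6g at 0 in both. The uninjured MRL libraries, at 0.0656 to 2.69 CPM, were all below the injured ones, and S100a8 averaged 0.738 CPM before and 6.97 CPM after injury there. Uninjured C57 libraries ranged from 0.774 to 141 CPM, the highest being replicate 3, and none of the 2 neutrophil markers tested passed in either strain. The 6 dendritic cell markers summed to 28.1 to 34.0 CPM in injured and 11.04 to 12.9 CPM in uninjured C57 tendon, and to 12.8 to 23.8 CPM and 10.1 to 15.9 CPM in MRL, where BI-275, the library highest in Itgax, had the lowest injured sum. Of these markers none of 3 tested passed in C57 and 1 of 2 in MRL, Cd209a (log2 fold change 3.97, adjusted p = 0.0384), tested only with its injured libraries counted, and the 5 B and plasma cell markers stayed at or under 2.45 CPM everywhere. The 6 mast cell markers summed to 77.5, 293, 10.9 and 136 CPM in the injured C57 libraries, 3 of which were above all uninjured C57 libraries (7.88 to 12.6 CPM), and to 0.213 to 63.2 CPM in injured and 3.22 to 65.5 CPM in uninjured MRL tendon. None of them passed in either strain. The part of these cells in the changes of the members was not tested.

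Other genes of the adhesion cascade were counted in a list of 49. Of these, 40 were tested in C57 and 1 rose, Fermt3, which encodes the integrin activator kindlin-3 of blood cells (log2 fold change 1.78, SE 0.25, adjusted p = 0.0175), and none fell, where 0.908% of all genes were called higher. In MRL the log2 fold change of Fermt3 was 1.54 (adjusted p = 0.0682). In MRL 39 were tested and 5 rose, where 5.25% of all genes were called higher: Cytip, a regulator of adhesion in lymphoid and dendritic cells (3.78, SE 0.86, adjusted p = 0.0206), Fn1, the integrin ligand fibronectin (1.68, SE 0.41, adjusted p = 0.0277), the adaptors Skap2 (1.504, adjusted p = 0.00981) and Fyb (1.46, adjusted p = 0.0459), and Cd44, the hyaluronan receptor (1.14, adjusted p = 0.00964). Cytip was tested only with its injured libraries counted in both strains. In C57 these 5 genes had log2 fold changes of 1.499 (Cytip, adjusted p = 0.357), 1.70 (Fn1, 0.109), 1.05 (Skap2, 0.174), 1.48 (Fyb, 0.183) and 0.58 (Cd44, 0.464), and none of 41 list genes tested passed in the interaction. The low count filter was reached only with the injured libraries counted for 10 of the 40 list genes in C57 and 9 of the 39 in MRL. Over the other 30 in each strain, of which 1 was called in C57 and 4 in MRL, the median log2 fold change was 0.56 in C57 and 0.21 in MRL, against -0.05 and -0.03 over all genes. By class, integrin activation held 1 gene that rose of 10 tested in C57 and 3 of 10 in MRL, selectins and their ligands 0 of 10 and 1 of 9, counter-receptors 0 of 12 and 1 of 12, and other integrin chains 0 of 8 and 0 of 8. Between injured tendons 4 of 40 were lower in MRL and none higher, where 1.88% of all genes were called lower: Pecam1 (-3.75, adjusted p = 0.0389, tested only with its C57 libraries counted) and Esam (-3.03, adjusted p = 0.0137), both of endothelial junctions, the platelet and vascular chain Itgb3 (-2.55, adjusted p = 0.0321) and the laminin-binding chain Itga6 (-1.97, adjusted p = 0.00976). None passed between uninjured tendons. The list genes with the highest level per length at 7 dpi were Fn1 (421 ± 148 RPKM in C57 and 431 ± 208 RPKM in MRL), the integrin-activating GTPase gene Rap1b (182 ± 35.1 and 161 ± 17.1 RPKM) and Itgb1, the beta chain that also pairs with alpha 4 (166 ± 47.7 and 174 ± 20.8 RPKM), while Madcam1, the addressin of alpha 4 beta 7, was at 0.0484 CPM or less on average in each group.

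Within groups, the deviations of log2 CPM from the group mean were compared across the 16 libraries, which share depth and tissue make-up within each library. Of the 45 pairs of members, Itgam and Itgb2 had the highest correlation (r = 0.83, n = 16 libraries). The genes most like Itgb2 were Lair1 (r = 0.94), Ccr1 (0.94), Cd300ld (0.93), Pex5 (0.93) and Ttc17 (0.92), of which the first 3 encode receptors of myeloid cells. Without C57 uninjured replicate 4 the first 4 of these were still among the nearest 4, at 0.87 to 0.90, and Ttc17 ranked 9. The genes most like Itga4 were 3010026O09Rik (0.94), Gm37954 (0.87), Bcl2l11 (0.80), Trpt1 (0.80) and E330011M16Rik (0.79). Those most like Vcam1 were Elavl1 (0.86), H1fx (0.82), Rpl10a-ps1 (0.79), G3bp2 (0.77) and 5430416N02Rik (0.76). Without C57 uninjured replicate 4 the Itga4 genes ranked 1, 3, 6, 13 and 17, in this order. The Vcam1 genes then ranked 1, 3, 2, 8 and 10.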

How the data were processed

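Single tendons were flash frozen, and total RNA was extracted with Trizol. The methods describe pre-amplification of the cDNA, whereas the labels name a poly-A kit without it. Neither names molecular identifiers, so counting error alone understates technical error. For the 100-nt reads, the processing notes of the submitters name Trimmomatic 0.36, STAR 2.5.2b, Subread 1.5.0p3, featureCounts and DESeq2 1.14.1, and the build GRCm38.p5. The gene annotation and the strand setting are not given in the sources used here. The authors deposited raw, unnormalized counts, with 49568 gene symbols as rows and the 16 libraries as columns.

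Groups came from the labels. Differential expression was tested with edgeR 4.0.16 in R 4.3.3 (TMM factors, filterByExpr on the groups of the fit, robust quasi-likelihood test), on the 8 libraries of each comparison or on all 16 for the interaction, with Benjamini-Hochberg adjustment over all genes tested. A gene passed with an adjusted p below 0.05 and a log2 fold change beyond 1 in either direction (the interaction at an adjusted p under 0.05 alone). The standard error was the log2 fold change divided by the square root of F. CPM used TMM-adjusted library sizes over all 16 libraries, and RPKM divided these by the union exon length of GENCODE M21, which understates genes whose long isoforms are not used. Ratios used CPM plus 0.5, and ratios and shares were compared with two-sided exact permutation tests in scipy 1.17.1. DESeq2 1.42.0, other factors, no filter, a single fit of all libraries, a replicate block and leaving out libraries were tried as alternatives.

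The 10 members and the gene lists were chosen with earlier results of these data known. Named were all members, the list genes that passed or had the highest level per length, and, for Itgb2, Itga4 and Vcam1, the 5 genes with the most similar deviations from group means. Madcam1 was named after its values were seen. The promoter sequences and the positions of transcripts came from RefSeq (GRCm38.p6) and GENCODE M21, and the remaining 4 promoters and the proteins were not used here. No 2 libraries of a group were identical, and each pair differed by more than sampling noise (chi-square per degree of freedom at least 20.9). The fits were also run on simulated data, and the outcome is not given here.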

Additional observations from a re-analysis of the deposited data

Results flagged for a closer look

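In 6 of the 40 sets of 4 libraries (10 genes in 4 groups), 1 library lay far from the other 3 by Dixon's test, where chance gives about 1 in 20 of sets without zeros. Where the other 3 libraries are at 0, any count, even a single read, is marked in this way, so that rate does not apply. Itgam was at 140.3 CPM in BI-184 and at 52.8 to 62.9 CPM in the other injured C57 libraries. Selp was at 5.81 CPM in BI-274 against at most 0.820 CPM in the other injured MRL libraries, and at 3.56 CPM in MRL uninjured replicate 3 against at most 0.359 CPM. Itgal was at 3.33 CPM in MRL uninjured replicate 3 against at most 0.0790 CPM, and at 1.07 CPM in C57 uninjured replicate 3, where the other libraries were at 0. Itgax was at 0.0718 CPM in MRL uninjured replicate 2, a single count, with the others at 0. MRL uninjured replicate 3 also had the highest endothelial marker sum of its group, 98.5 CPM against at most 25.9 CPM, and BI-274 the highest of the injured MRL libraries, 40.1 CPM.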

How the results depend on the processing

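With DESeq2, 6 members passed on injury in C57 and 1 in the interaction, and without both uninjured libraries numbered 4, 1 (Icam1) passed between uninjured strains; this setting leaves out the MRL library lowest in Icam1, and without single libraries the adjusted p of Icam1 was 0.0768 to 0.950. Leaving out single libraries gave 0 to 3 members in C57. Counts of all genes moved more: in C57 from 155 to 754 with DESeq2, 367 in a fit of all 16 libraries, 867 without C57 uninjured replicate 4 and BI-181, 459 without these and BI-183 (both chosen after seeing the data) and 10 to 750 without single libraries, in MRL from 1057 to between 689 and 1260 without single libraries, between injured strains from 502 to 1157 with DESeq2, 227 in a fit of all 16 libraries and 231 to 481 without single libraries, in the interaction from 0 to 141 with DESeq2, and between uninjured strains from 0 to 58 with DESeq2, 1 without a filter, 497 without both libraries numbered 4 and 0 to 3 without single libraries. The cause was not tested. In a fit of all 16 libraries Itgam passed in C57 (adjusted p = 0.0190) and missed in MRL (0.0541). No member that passed on injury changed direction under any alternative run.

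Values that changed sign were small or low in counts. Without both libraries numbered 4 the interaction was 0.43 for Itgb2 and 0.028 for Itgb7, and the uninjured difference was -0.22 for Itgam and 0.30 for Selplg. With total counts the injured difference of Itgal was -0.12. The ratio of Itgam to Ptprc in C57 was -0.0050 with a pseudocount of 0.1 and -0.39 over Tyrobp, and that of Itgb2 in MRL -0.057 over Tyrobp. Without single libraries the injury difference of Icam1 in MRL ranged from -0.091 to 0.37. The interaction then ranged from -0.42 to 0.20 for Itgb2, -0.47 to 0.20 for Vcam1, -1.51 to 0.32 for Itgb7, -0.62 to 0.040 for Selplg and -6.82 to 3.12 for Itgal, the uninjured difference from -0.11 to 0.35 for Itgam, -0.82 to 0.098 for Itgb7 and -0.41 to 0.27 for Selplg, and the injured difference from -0.31 to 0.96 for Itgal, -0.25 to 0.13 for Itga4 and -0.29 to 1.18 for Itgax. Ratios ranged from -0.15 to 0.22 for Itgam in C57, -0.072 to 0.34 for Itgb2 in MRL and -0.27 to 0.26 for Selplg in MRL, and C57 shares from -3.27 to 1.28 percentage points for Itgam and -2.09 to 2.46 for Itgax.

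Same-numbered uninjured libraries come from different animals, and their deviations did not correlate (r from -0.24 to -0.029), so the numbers do not pair them. With the replicate number as a replicate block no member and no gene passed (0), and the difference of Selplg was 0.0013. Itgal, Itgax and Selp were at or under the floor of 3 counts in several libraries, which limits the precision of their fold changes.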
